A study of Drosophila melanogaster with 35 samples.

Results

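Fat bodies of 30-day-old female Drosophila melanogaster that carried the S106 driver and a UASfoxo transgene were compared between flies labelled switch and flies labelled control. The comparison was chosen by its sample labels, and it took 8 of the 35 RNA-seq samples of the series: 4 S106>UASfoxo switch libraries and 4 S106>UASfoxo control libraries. Switch flies were labelled RU486+ and were given the inducer RU486 at 200 µM for 21 days and then inducer-free food for 7 days, so that the samples follow a week in which induction had ended. Control flies were labelled RU486-, although their protocol text repeats the feeding schedule of the switch flies. All of these flies were mated, and both groups carried the driver and the transgene. The remaining fat-body samples came from flies with the S106 driver alone (4 S106 switch libraries and 5 S106 control libraries) and entered the fits to estimate the spread. They also gave a range of levels in flies without the transgene. Whether the libraries within a group stem from separate cultures or pools of flies is not labelled, so the p-values measure the spread between these libraries, part of which may be technical.

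S106 is a GeneSwitch driver: its product activates a UAS transgene only while it binds RU486, and it is known to act in the adult abdominal fat body and also in the gut. dFOXO, the product of foxo, is a forkhead transcription factor that insulin signalling keeps out of the nucleus. The fat body is the insect counterpart of liver and fat tissue. It stores fat and glycogen, secretes yolk proteins, lipoproteins, collagen IV and immune peptides into the hemolymph, and takes part in amino acid and nucleotide metabolism.

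The deposited raw counts summed to 6856804 to 11833118 per switch library and to 6708078 to 11977047 per control library. Of 14649 genes in the table, 9819 had enough counts to be tested. Values below are CPM (counts scaled to a common library total), scaled for composition, unless a log2 scale is named, and values of a group are given in the order of its replicates 1 to 4. CPM does not correct for gene length, so levels were compared between libraries and not between genes.

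The fat-body identity of the libraries was checked first. Of 18 marker genes of fat body, 17 were tested, and their summed level was 93620 to 156300 CPM in switch libraries and 30400 to 137400 CPM in control libraries. The yolk protein gene Yp1 had 56920, 81900, 60320 and 46630 CPM in switch libraries, against 35760, 52230, 71980 and 11470 CPM in control libraries. Markers of fat body were abundant in each of the 8 libraries and were at their lowest in control replicate 4. The larval storage protein gene Lsp2 was low, at no more than 4.92 CPM in switch libraries and 2.02 CPM in control libraries.

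Ovary content differed far more between libraries than between groups. The eggshell genes, which follicle cells express, had a mean log2 CPM of 1.78, -0.07, -1.82 and 5.05 in switch libraries, against 0.94, -2.02, -1.44 and 2.39 in control libraries. Switch replicate 4 stood above all others, and replicate 3 of both groups and control replicate 2 held little eggshell RNA. The vitelline membrane gene Vm26Aa had 311, 46.7, 0 and 638 CPM in switch libraries, against 54.8, 0.0958, 1.02 and 284 CPM in control libraries. The chorion gene Cp15 had 70.5 CPM in switch replicate 4 and 27.4 CPM in control replicate 4, and at most 3.14 CPM in the other libraries of the 2 groups. The germline genes had a mean log2 CPM of 5.09, 2.85, 4.41 and 4.96 in switch libraries, against 5.41, 0.40, 4.19 and 5.95 in control libraries. Control replicate 2 was almost free of germline RNA: osk, whose mRNA is laid down in the oocyte, had 0.192 CPM there, against 486, 93.1 and 690 CPM in the other control libraries and 55.9 to 356 CPM in switch libraries. The mean over both lists was 3.30 ± 1.44 in switch libraries and 2.65 ± 2.28 in control libraries (log2 CPM, SD, n = 4 each), a difference of 0.65 that was smaller than the spread within either group (exact two-sided permutation test, p = 0.657, and 0.0286 is the smallest p that 4 against 4 libraries allow). Without control replicate 2 the difference turned to -0.37.

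**Figure D1:**
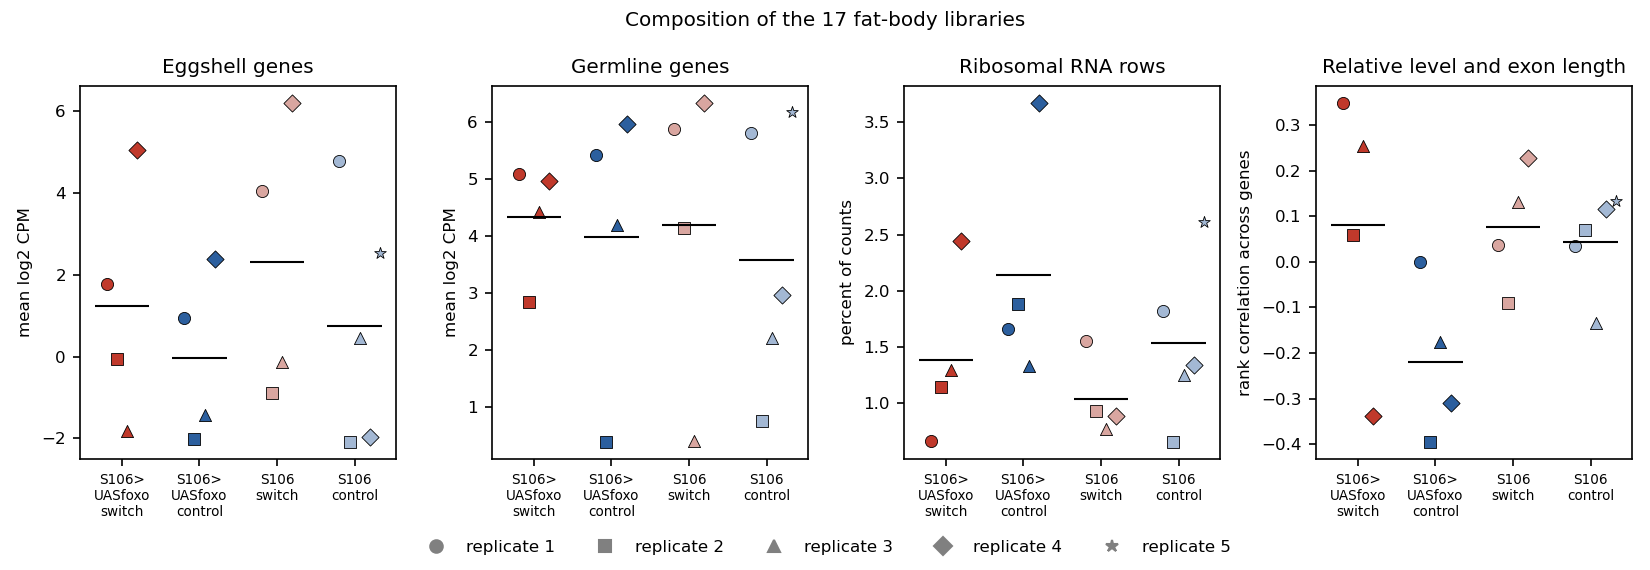
Composition of the 17 fat-body libraries: each point is a library, shaped by replicate number, with a line at the group mean. The panels give the mean log2 CPM of eggshell genes, that of germline genes, the percent of counts in ribosomal RNA rows and Spearman's rank correlation across genes between relative level and exon length. Switch and control libraries of the S106>UASfoxo flies overlap in all 4 measures, with eggshell means of -1.82 to 5.05 in switch libraries and -2.02 to 2.39 in control libraries.

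Of the tested eggshell genes, 16 of 16 were higher in switch libraries, with a median log2 fold change of 1.60, and 2 of them passed an unadjusted p under 0.05. That median was -0.02 without switch replicate 4, so it rested on that library. For germline genes the direction depended on the measure. Only 6 of 32 were higher, and the median log2 fold change over the 32 was -0.63, which became 0.08 without control replicate 4 and -1.02 without control replicate 2, and none passed. Their mean log2 CPM was instead 0.34 higher in switch libraries (exact two-sided permutation test, p = 0.886). Spermatheca markers, 6 of which were tested, summed to between 0.085 and 325.2 CPM in switch libraries and between 0 and 354.9 CPM in control libraries. CG32834, a secreted protease gene of that list, was at 0 in switch replicate 1 and in control replicates 2 and 3.

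Transcripts of other tissues were present as well. Digestive enzyme genes of the gut were low but 16 of 16 were higher in switch libraries, with summed levels of 28.6 to 819.5 CPM in switch libraries and 17.2 to 74.9 CPM in control libraries. The amylase gene Amy-p had 1.11, 38.6, 3.03 and 6.76 CPM in switch libraries, against 1.01, 1.44, 0.717 and 0.658 CPM in control libraries. Most of this signal lay in switch replicate 2, without which the median log2 fold change of the list was 0.63, against 2.54 with it. Muscle sarcomere genes summed to 3428 to 6647 CPM in switch libraries and 2509 to 3992 CPM in control libraries, and 19 of 23 were higher. Oenocyte markers had a median log2 fold change of 0.15 and hemocyte markers one of 0.26, and no member of either list passed an unadjusted p under 0.05. Neuron markers had a median of 0.45, which was -0.11 without switch replicate 4. In bulk libraries, a different number of cells of a type and a different amount of RNA per cell cannot be told apart.

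Library quality also varied. Ribosomal RNA rows took 0.666%, 1.14%, 1.30% and 2.45% of counts in switch libraries and 1.66%, 1.89%, 1.33% and 3.67% in control libraries, and replicate 4 was highest in both groups. Spearman's rank correlation across genes, between exon length and how far a gene's log2 CPM lay above its mean over the 17 libraries, was 0.349, 0.0588, 0.255 and -0.339 in switch libraries, against 0.00075, -0.394, -0.176 and -0.311 in control libraries. This correlation was higher in switch replicates 1 to 3 than in any control library, and switch replicate 4 lay among the control libraries. Genes are not independent replicates, so it is given as a description of each library. Genes with exon lengths over 500 and up to 1000 bases centred on a log2 fold change of -0.26 (median), and those over 4000 and up to 8000 bases one of 0.30. Among the longer class 19.2% of genes were higher at an unadjusted p under 0.05, against 1.69% of the shorter class. Ribosomal RNA differed by -0.75 percentage points, against SDs of 0.76 in switch and 1.05 in control libraries (exact two-sided permutation test, p = 0.343). The correlation differed by 0.301, against SDs of 0.305 in switch and 0.173 in control libraries (same test, p = 0.143). With 4 libraries a group, where 0.0286 is the smallest p possible, these tests cannot show that the groups are alike. The part of ovary content, gut and muscle RNA, ribosomal RNA and length in the differences below was not tested beyond the alternative fits that are named.

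The foxo gene itself (FBgn0038197, chromosome 3R, 14056945 to 14087978 in the BDGP6 annotation, which need not be the build of the counts) had 157, 160, 240 and 95.0 CPM in switch libraries, against 93.3, 72.5, 177 and 78.2 CPM in control libraries. The groups overlapped: switch replicate 4 lay beside the lower control libraries and control replicate 3 above switch replicates 1 and 2. Its log2 fold change was 0.63 ± 0.35 (SE), with an adjusted p of 0.457 in edgeR's quasi-likelihood test with Benjamini-Hochberg adjustment. The counts do not separate transcripts of the transgene from those of the native gene. Thor, which encodes the translation inhibitor 4E-BP and is a known dFOXO target, had 348, 1108, 870 and 762 CPM in switch libraries, against 719, 582, 1067 and 739 CPM in control libraries. These overlapped throughout (log2 fold change -0.01 ± 0.51, adjusted p = 0.996). Of 11 genes tied to dFOXO, 7 were higher, their median log2 fold change was 0.13, and none passed an unadjusted p under 0.05.

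Across all genes, 0 of 9819 passed an adjusted p under 0.05 in edgeR's quasi-likelihood test, and the smallest adjusted p was 0.273. Before adjustment 1269 genes (12.9%) had a p under 0.05, of which 992 (10.1%) were higher and 277 (2.82%) lower in switch libraries. In 223 genes (2.27%) every switch library lay above every control library, and in 185 genes (1.88%) every switch library lay below. Although higher genes outnumbered lower ones among the smallest p-values, 4763 genes (48.5%) had a log2 fold change above 0 and the median over all genes was -0.02. limma-voom called 0 genes as well (1271 unadjusted), whereas DESeq2's Wald test called 53 (0.54%), 41 of them higher (0.418%). Of the 12 genes that DESeq2 called lower, 6 were ribosomal RNA rows. One of these, 28SrRNA-Psi:CR45855, had 1.37, 2.38, 1.94 and 8.22 CPM in switch libraries, against 6.17, 781, 1.84 and 83.8 CPM in control libraries, so that control replicates 2 and 4 carried it. Its groups overlapped.

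The 15 higher and 15 lower genes with the smallest p-values, non-overlapping groups and at least 5 CPM on average are described next. None passed the adjusted threshold in edgeR (adjusted p of 0.273 to 0.274), and their fold changes were part of how they were chosen, so they are given as a description. All 15 higher genes and 5 of the lower ones were among the 53 that DESeq2 called. The 15 higher and 15 lower genes lie outside the sugar and lipid lists.

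Several of the higher genes act in transcription and splicing. Prp16, whose yeast counterpart is a splicing ATPase, had 39.5, 21.4, 33.4 and 14.8 CPM in switch libraries, against 11.3, 6.61, 12.7 and 6.25 CPM in control libraries. Bx42, a spliceosome component and Notch coactivator, had 47.9, 32.9, 39.2 and 24.4 CPM in switch libraries, against 12.9, 17.5, 23.4 and 9.00 CPM in control libraries. In both, switch replicate 4 was the lowest switch library and only narrowly cleared the highest control library. Taf6, a subunit of the general transcription factor TFIID, had 27.9, 30.5, 27.2 and 19.8 CPM in switch libraries, against 9.99, 12.9, 17.5 and 6.69 CPM in control libraries, a log2 fold change of 1.16 ± 0.26. Chi, the LIM-domain cofactor Chip, had 33.5, 16.4, 20.8 and 8.66 CPM in switch libraries, against 7.07, 3.64, 8.50 and 3.29 CPM in control libraries. His3.3B, which encodes the replacement histone H3.3, had 344, 342, 372 and 287 CPM in switch libraries, against 185, 143, 258 and 176 CPM in control libraries. The His3.3B groups were separated with a small log2 fold change, 0.82 ± 0.20, and low spread among switch libraries. The largest fold change of the 15 was that of htk, at 44.3, 16.0, 30.3 and 5.29 CPM in switch libraries against 4.71, 4.12, 5.22 and 1.98 CPM in control libraries, a log2 fold change of 2.58 ± 0.60. Its lowest switch library and its highest control library all but touched.

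Others of the higher genes act at membranes, in the cytoskeleton and in energy buffering. The myotubularin gene mtm, a phosphoinositide phosphatase of endosomes, had 19.7, 17.3, 16.3 and 9.84 CPM in switch libraries, against 5.72, 8.04, 8.60 and 5.6 CPM in control libraries. Gmap, a golgin of the Golgi membrane, had a log2 fold change of 1.21 ± 0.30, and Dys, which encodes dystrophin, one of 0.80 ± 0.19. Dys had 58.2, 49.8, 59.2 and 42.4 CPM in switch libraries, against 35.2, 26.5, 34.4 and 24.0 CPM in control libraries. In Dys as in mtm switch replicate 4 was the lowest switch library and still above every control library. Argk1, arginine kinase, regenerates ATP from the phosphagen of insects and is also a muscle gene. It had 204, 240, 183 and 96.8 CPM in switch libraries, against 80.7, 55.8, 84.7 and 30.5 CPM in control libraries, a log2 fold change of 1.52 ± 0.37. Other muscle genes varied. Mhc, the muscle myosin heavy chain, had 363, 377, 345 and 131 CPM in switch libraries, against 127, 98.2, 129 and 54.9 CPM in control libraries. The myosin light chain genes Mlc1 and Mlc2 had log2 fold changes of 0.003 ± 0.37 and 0.075 ± 0.34. The remaining higher genes were T48, shop, CG17068, CG5273 and the antisense RNA gene asRNA:ASTR, with log2 fold changes of 1.22 to 1.53. The reads of an antisense gene and its partner can be told apart only by strand, and how strand entered the authors' counting is not given in the sources used here.

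The log2 fold changes of the 15 lower genes ran from -1.66 to -0.38. The translation initiation factor gene eIF2beta had 148, 136, 146 and 139 CPM in switch libraries, against 169, 208, 185 and 212 CPM in control libraries, a log2 fold change of -0.44 ± 0.14. Atg5, needed to form autophagosomes, had 17.6, 19.7, 18.1 and 19.5 CPM in switch libraries, against 27.0, 29.1, 22.6 and 29.8 CPM in control libraries. The lt gene, which encodes the lysosomal tethering protein Vps41, had 58.0, 58.4, 58.4 and 59.3 CPM in switch libraries, against 69.9, 78.6, 69.9 and 85.6 CPM in control libraries. In these 3 genes the switch libraries were nearly equal, replicate 4 included, and the control libraries were higher and more spread. Zyx, which encodes the focal adhesion protein zyxin, had 70, 74.1, 73.0 and 89.6 CPM in switch libraries, against 103, 112, 96.5 and 107 CPM in control libraries. Tmx3 and ERp44, endoplasmic reticulum genes of the thioredoxin family, had log2 fold changes of -0.47 ± 0.14 and -0.43 ± 0.14. Rep, the Rab escort protein, had one of -0.42 ± 0.14. The deacetylase gene HDAC11 and the insulator gene Ibf1 had log2 fold changes of -0.84 ± 0.29 and -0.74 ± 0.24. The other lower genes were cag, ste24a, Cnep1r2, CG14963 and FBgn0058178, at -1.66 to -0.49.

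The driver-only flies gave a level to set these genes against. For all 15 higher genes the mean of the switch libraries fell inside the range of the 9 driver-only libraries, and the mean of the control libraries fell below that range in all 15. In 13 of the 15 every control library was below every driver-only library: Taf6, for example, had 19.9 to 32.1 CPM across driver-only libraries. Among the 15 lower genes the switch mean was inside the driver-only range in 13, and the control mean was above it in 9 and inside it in 6. Both sets were chosen by switch and control groups that do not overlap, so these positions are partly built in. The same counts over all tested genes are not given, so whether the positions are particular to these genes was not tested. Replicate 4 was the lowest switch library in all 15 higher genes, and control replicate 4 the lowest control library in 13 of them.

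**Figure D2:**
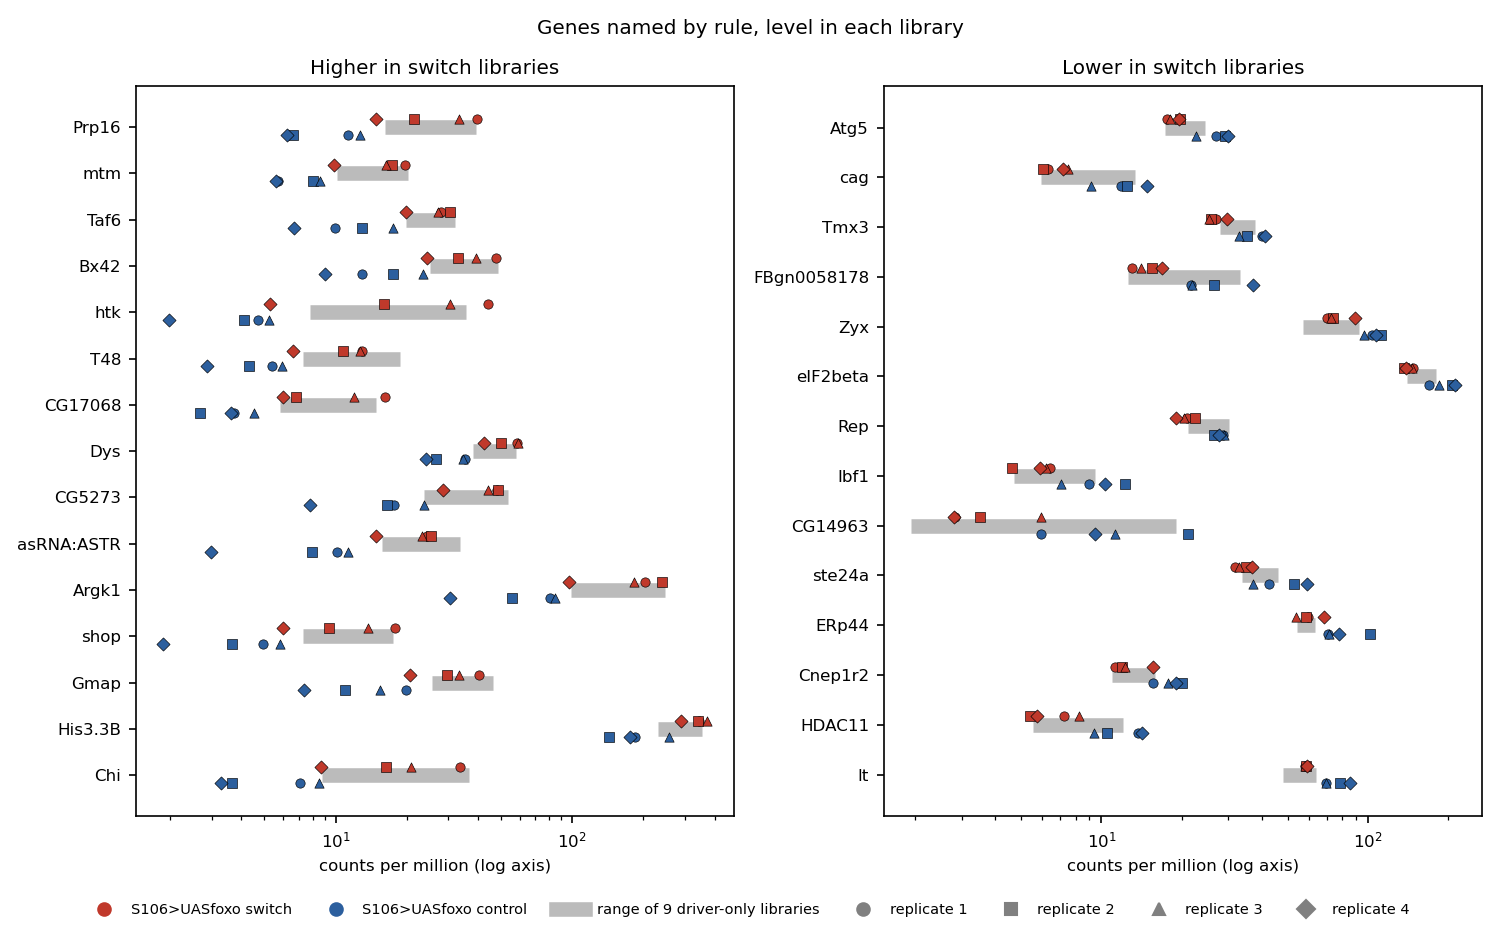
Level in CPM (log axis) of the 15 higher genes (left) and 14 of the 15 lower genes (right) in each S106>UASfoxo switch library (red) and control library (blue), shaped by replicate number, with the range of the 9 driver-only libraries as a grey bar. For the 15 higher genes the switch means lie within the grey bars and the control means below them.

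Genes of 59 lists of functions and cell types were then described by list. Beside each count, 10.1% of all tested genes were higher and 2.82% lower at an unadjusted p under 0.05, and no member of any list passed the adjusted threshold. The lists were drawn up with earlier results of these data known. Sugar and lipid metabolism are not described here.

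Genes of the basement membrane, the sheet of collagen IV, laminin and perlecan that the fat body supplies to other tissues, were mostly higher in switch libraries. Of 20 tested genes 17 were higher, 6 at an unadjusted p under 0.05 and none lower at that level, with a median log2 fold change of 0.70. The collagen IV chains gave the largest differences. The gene vkg (FBgn0016075, chromosome 2L, 5012144 to 5028191) had 281, 133, 257 and 30.4 CPM in switch libraries, against 33.7, 32.0, 47.5 and 19.1 CPM in control libraries. Its neighbour Col4a1 had 470, 253, 415 and 57.0 CPM in switch libraries, against 60.0, 55.0, 97.3 and 38.0 CPM in control libraries. In both genes 3 switch libraries were well above all control libraries, while switch replicate 4 fell among them. The log2 fold changes were 2.41 ± 0.72 for vkg and 2.26 ± 0.71 for Col4a1, with adjusted p of 0.273 and 0.274. Ppn, the matrix proteoglycan papilin, had 126, 114, 124 and 52.7 CPM in switch libraries, against 39.1, 39.5, 52.5 and 21.3 CPM in control libraries, and its groups met without overlap. The peroxidase Pxn and the matrix protein genes Tig and Mp made up the rest of the 6. Laminin chains were close to equal: LanA had 32.1, 20.0, 24.0 and 30.8 CPM in switch libraries, against 25.9, 24.3, 23.1 and 31.7 CPM in control libraries, and LanB1 had a log2 fold change of -0.05 ± 0.32. Driver-only libraries had 41.2 to 301 CPM of vkg, so control libraries lay mostly below that range and switch libraries within it apart from replicate 4. With the trend on exon length removed the list's median was 0.43.

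Adhesion genes split. Vinc, vinculin, had 52.3, 42.7, 42.4 and 8.81 CPM in switch libraries, against 9.09, 7.47, 11.7 and 5.71 CPM in control libraries. The beta-catenin gene arm had 205.1, 144, 155 and 85.9 CPM in switch libraries, against 68.9, 54.0, 87.6 and 30.5 CPM in control libraries. Switch replicate 4 again fell among the controls for both. Of 13 integrin and adhesion genes 4 were higher and 2, Zyx and Ilk, lower at an unadjusted p under 0.05, and the median log2 fold change of 0.23 was -0.07 with the length trend removed. Of 11 septate junction genes, which seal epithelia, 6 were higher, 3 of them (Gli, cora and Lac) at that level, with a median of 0.00.

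Of 21 tested genes of transport between endoplasmic reticulum and Golgi, among them the coat proteins that carry the cargo, 14 were higher, 10 of them at an unadjusted p under 0.05, and 1 was lower at that level, with a median log2 fold change of 0.56. Sec13, a COPII coat subunit, had 56.5, 44.6, 47.1 and 18.6 CPM in switch libraries, against 17.1, 22.1, 25.3 and 7.79 CPM in control libraries. The COPI coat gene betaCOP had 92.1, 60.0, 85.2 and 23.5 CPM in switch libraries, against 22.3, 25.6, 40.95 and 9.77 CPM in control libraries, and gammaCOP 73.2, 58.2, 62.6 and 40.1 CPM in switch libraries, against 29.2, 34.7, 41.5 and 11.4 CPM in control libraries. Each had 3 switch libraries above all control libraries and replicate 4 within the control range. The small GTPase Arf1, which recruits COPI, was lower: it had 338, 446, 373 and 418 CPM in switch libraries, against 472, 567, 489 and 494 CPM in control libraries, without overlap and with a log2 fold change of -0.36 ± 0.17. Removing the length trend brought the list's median to 0.25. Xbp1, the transcription factor of the unfolded protein response, had 444, 424, 486 and 169 CPM in switch libraries, against 107, 148, 274 and 38.2 CPM in control libraries. Switch replicate 4 fell inside the control range, and the log2 fold change was 1.43 ± 0.58 with an adjusted p of 0.320. Folding and unfolded-response genes as a list did not share it: 12 of 25 were higher, with a median of -0.09. At an unadjusted p under 0.05 Xbp1 was higher, while the translocon gene Sec61gamma (-0.73 ± 0.24) and Ero1L (-0.33 ± 0.15) were lower.

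**Figure D3:**
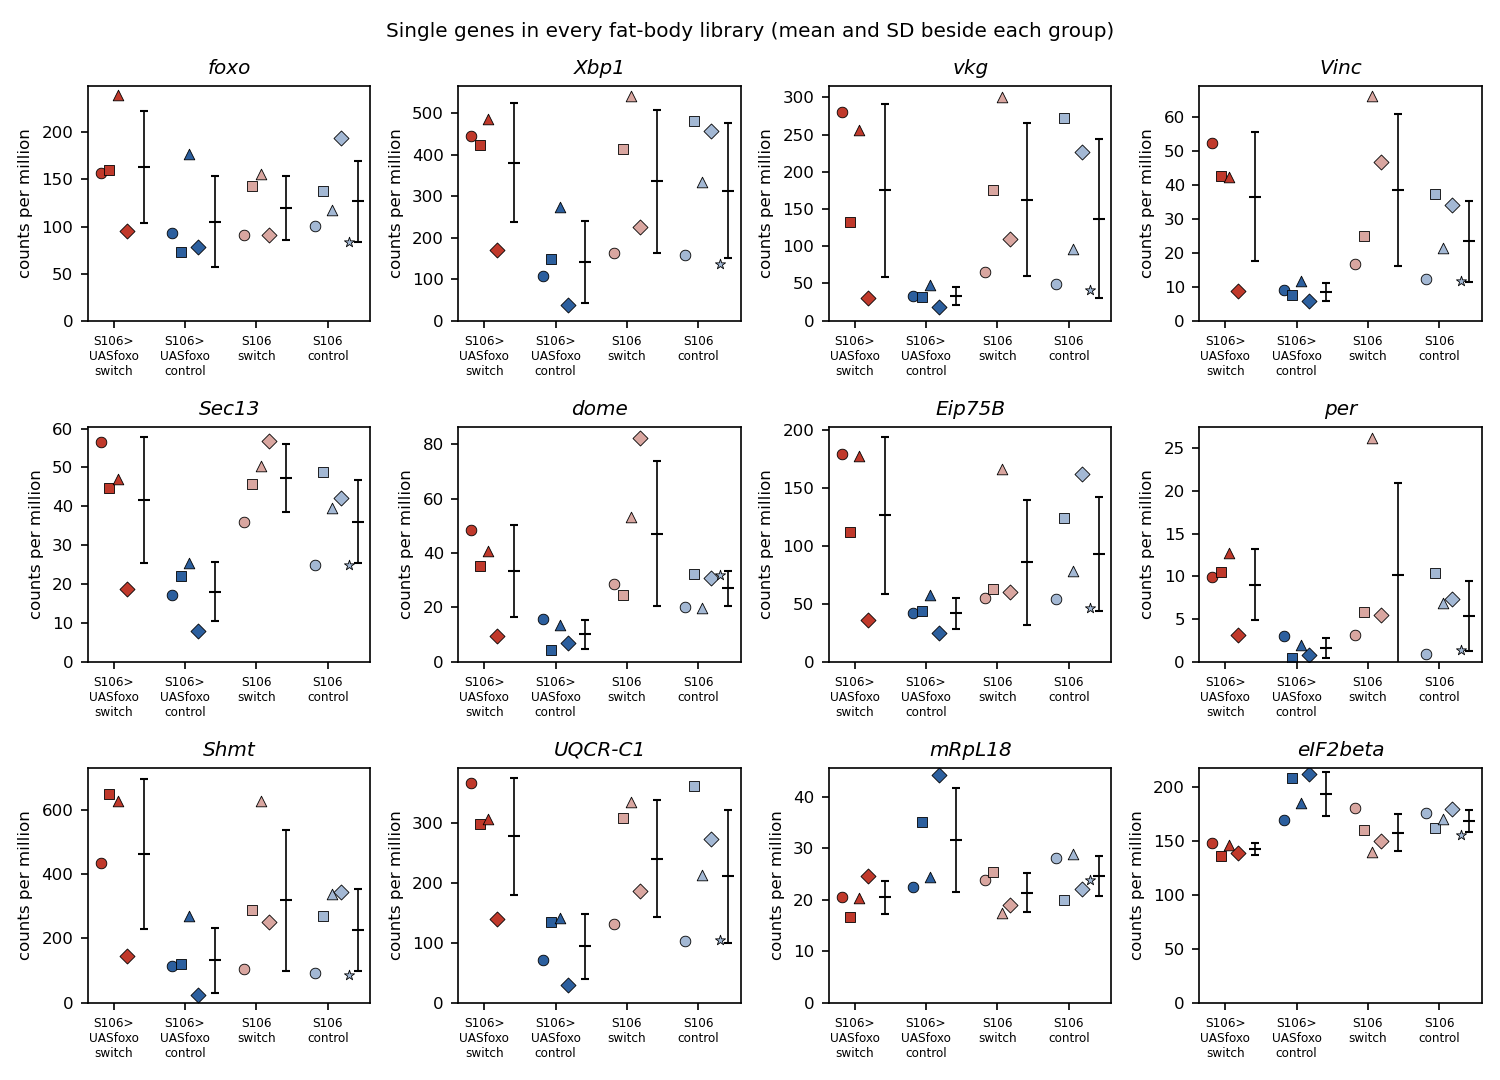
CPM of 12 genes in each of the 17 fat-body libraries, shaped by replicate number, with the mean and SD beside each group. For the genes other than foxo, mRpL18 and eIF2beta, switch replicates 1 to 3 lie above the S106>UASfoxo control libraries and replicate 4 near or among them.

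Signalling lists are given pathway by pathway. All 5 tested JAK-STAT genes had log2 fold changes above 0, with a median of 1.19, and 2 passed an unadjusted p under 0.05. The receptor gene dome had 48.4, 35.1, 40.6 and 9.40 CPM in switch libraries, against 15.6, 4.41, 13.5 and 6.91 CPM in control libraries. Socs36E, a feedback inhibitor that the pathway induces, had 8.29, 21.1, 13.1 and 6.61 CPM in switch libraries, against 6.84, 2.87, 6.65 and 2.96 CPM in control libraries. Both overlapped through switch replicate 4. The kinase gene hop and the transcription factor gene Stat92E had log2 fold changes of 0.07 ± 0.32 and 0.17 ± 0.33. With the length trend removed these 2 were below 0, at -0.30 for hop and -0.15 for Stat92E. In the JNK and stress kinase list 3 of 13 were higher at that level: the kinase kinase gene hep (1.44 ± 0.43), Ets21C (1.64 ± 0.68) and the Fos gene kay (0.94 ± 0.40, all log2 fold changes). At the same level p38a was lower, with a log2 fold change of -0.39 ± 0.17. For bsk, of the same list, the value was -0.40 ± 0.24 without overlap (edgeR's quasi-likelihood test, unadjusted p = 0.114). Among ligands, dpp, a BMP, had 28.3, 24.9, 23.4 and 9.99 CPM in switch libraries, against 9.65, 12.3, 11.5 and 6.14 CPM in control libraries. Its relative gbb had a log2 fold change of 1.35 ± 0.61. For insulin receptor pathway genes the median was -0.01, 7 of 14 were above 0 and 1, Lnk, was higher at an unadjusted p under 0.05. Of TOR pathway genes 9 of 17 were higher, and gig and raptor, a Tsc subunit and a TORC1 subunit, were the 2 at that level.

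Nuclear receptor and ecdysone genes leaned higher, with 18 of 22 above 0, 5 at an unadjusted p under 0.05 and a median log2 fold change of 0.33. Eip75B, a receptor that ecdysone induces, had 180, 112, 178 and 36.0 CPM in switch libraries, against 42.3, 43.5, 57.2 and 24.8 CPM in control libraries. For usp, the partner of the ecdysone receptor, and Kr-h1, a target of juvenile hormone, the log2 fold changes were 1.25 ± 0.37 and 1.54 ± 0.58. This list is rich in long genes, and its median was -0.02 with the length trend removed. Among clock genes 9 of 10 were higher, but only per passed an unadjusted p under 0.05. It had 9.91, 10.5, 12.7 and 3.08 CPM in switch libraries, against 3.03, 0.479, 1.95 and 0.768 CPM in control libraries, where its lowest switch library just exceeded its highest control library. The time of day of dissection is not given in the labels.

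Chromatin genes included many that were higher one by one without a shift of the list. Of 40 histone modifiers 10 were higher at an unadjusted p under 0.05 and none lower, yet only 22 were above 0 and the median log2 fold change was 0.18, or -0.16 with the length trend removed. HDAC4, a class II deacetylase that FOXO signalling is tied to in flies and mammals, had 53.2, 32.4, 47.7 and 13.5 CPM in switch libraries, against 17.6, 12.2, 18.1 and 14.9 CPM in control libraries. Set2, the histone H3 lysine methyltransferase of transcribed genes, had a log2 fold change of 1.41 ± 0.49. For 38 chromatin remodellers the count was 8 higher and none lower, with a median of 0.09. Chd1 had 118, 42.7, 88.7 and 28.6 CPM in switch libraries, against 29.3, 16.3, 35.2 and 12.2 CPM in control libraries, and overlapped through replicate 4. The Brahma complex gene Bap111 had 43.9, 12.2, 25.7 and 5.14 CPM in switch libraries, against 8.64, 1.82, 4.20 and 2.08 CPM in control libraries. Mediator subunits split evenly at an unadjusted p under 0.05, with 3 of 25 higher and 3 lower and a median of -0.24. MED14, a large subunit, was higher (1.05 ± 0.33) and MED11, a small one, lower (-0.55 ± 0.19).

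Enzymes of methionine and one-carbon metabolism, which supply methyl groups and folate-bound carbons, were higher in 8 of 11 cases, 4 at an unadjusted p under 0.05, with a median log2 fold change of 0.63 that was 0.68 with the length trend removed. Shmt, which moves a carbon from serine to folate, had 433, 648, 625 and 146 CPM in switch libraries, against 113, 120, 268 and 24.9 CPM in control libraries. Ahcy, which breaks down S-adenosylhomocysteine, had 189, 171, 179 and 58.5 CPM in switch libraries, against 67.7, 57.8, 91.6 and 27.2 CPM in control libraries. The other 2 were Cbs, which starts transsulfuration, and pug, a folate enzyme. Sam-S, which makes S-adenosylmethionine, was not among them: it had 676, 700, 876 and 813 CPM in switch libraries, against 892, 1049, 1034 and 783 CPM in control libraries. For Shmt and Ahcy the first 3 switch libraries were above every control library and replicate 4 was not. Without control replicate 3 the list's median was 1.30 and without control replicate 4 it was 0.38.

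Purine and pyrimidine synthesis showed the same layout, with 10 of 13 higher, 5 at an unadjusted p under 0.05 and a median log2 fold change of 0.45. Its genes at that level were r, r-l, Pfas, Gart and ras, which encode enzymes of both pathways. Pfas had 246, 185, 260 and 50.4 CPM in switch libraries, against 64.2, 67.5, 140 and 25.8 CPM in control libraries. Amino acid metabolism had 16 of 18 higher and 3 at that level, with a median of 0.39. Gdh, glutamate dehydrogenase, had 217, 119, 134 and 72.0 CPM in switch libraries, against 52.1, 76.0, 99.4 and 26.3 CPM in control libraries. The aminotransferase gene Got2 and the glutamine synthetase gene Gs1 had log2 fold changes of 0.96 ± 0.40 and 0.99 ± 0.43. In each of these 3 genes the groups overlapped.

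Mitochondrial genes differed in direction by subunit. In the mitochondrial ribosome 65 of 72 genes were lower, 4 at an unadjusted p under 0.05 and none higher at that level, with a median log2 fold change of -0.36 that shrank to -0.16 with the length trend removed. mRpL18 had 20.6, 16.7, 20.3 and 24.5 CPM in switch libraries, against 22.6, 35.0, 24.5 and 44.2 CPM in control libraries. Small subunits of the import machinery were lower too, with Tim23, Tim17b, Tim8 and Tim9a at that level among 13 tested, whereas the chaperonin gene Hsp60A was higher: it had 252, 95.2, 168 and 44.8 CPM in switch libraries, against 51.4, 37.6, 55.6 and 29.9 CPM in control libraries. Of 25 genes of complexes II to IV 6 were higher at an unadjusted p under 0.05, namely SdhA, SdhB, UQCR-C1, UQCR-C2, Cyt-c1 and RFeSP. At that level 1 was lower, COX7CL, at -1.12 ± 0.32 without overlap, and the list's median was -0.10. COX7CL was low in both groups, with means of 1.12 CPM in switch libraries and 2.46 CPM in control libraries. UQCR-C1 had 366, 298, 306 and 139 CPM in switch libraries, against 71.0, 135, 141 and 29.1 CPM in control libraries, and overlapped through replicate 4. Complex I had ND-75 and ND-39 at that level among 34, and ATP synthase had its alpha subunit blw, at 1496, 1220, 1293 and 430 CPM in switch libraries, against 376, 505, 622 and 186 CPM in control libraries.

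Translation genes showed no common direction. Among cytosolic ribosomal protein genes the median log2 fold change was -0.08, 28 of 85 lay above 0, and 5 were higher at an unadjusted p under 0.05 against 1 lower. RpL4 had 2566, 3017, 2764 and 811 CPM in switch libraries, against 714, 802, 1305 and 231 CPM in control libraries, and its driver-only libraries ranged from 618 to 3915 CPM. Translation factors had 7 of 41 higher and 1, eIF2beta, lower at that level. Of them eIF2Bdelta, a subunit of the exchange factor for eIF2, had 30.6, 11.9, 18.3 and 8.66 CPM in switch libraries, against 6.28, 5.36, 7.47 and 1.98 CPM in control libraries, without overlap. Of 33 tRNA synthetase genes 6 were higher and 1, ArgRS, lower. Proteasome genes (median -0.03), vacuolar ATPase genes (0.04), autophagy and lysosome genes (0.08) and peroxisome genes (-0.11) had medians near that of all genes.

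Immune effector genes overlapped between the groups. Of 12 antimicrobial peptide genes 11 were lower, with a median log2 fold change of -0.31, and none passed an unadjusted p under 0.05. Mtk had 12.8, 23.5, 16.0 and 34.2 CPM in switch libraries, against 13.1, 45.5, 23.0 and 47.2 CPM in control libraries, and overlapped. Bomanin and Daisho genes, peptides of the Toll response, had a median of -0.23, and BomBc1 was carried by control replicate 2, at 136 CPM against 4.72 to 14.5 CPM in the other control libraries and 5.47 to 22.1 CPM in switch libraries. Signalling genes of the Toll and Imd pathways had 1 gene higher, Tab2, and 1 lower, Fadd, of 23. In the melanization and serpin list PPO2 and Spn27A were higher at that level among 22. Detoxification genes had medians near 0 or below it: the median of glutathione S-transferases was -0.26, 22 of 27 being lower, that of cytochrome P450 genes 0.02, 38 of 74 being higher, and that of UDP-glycosyltransferases -0.08. Of 27 genes of iron and metal handling 12 were higher, with a median of -0.01, and at an unadjusted p under 0.05 Tsf1 and mfrn were higher and Zip102B lower. Tsf1, which encodes the iron carrier transferrin, had 687, 1361, 942 and 221 CPM in switch libraries, against 140, 272, 242 and 46.9 CPM in control libraries, a log2 fold change of 2.19 ± 0.81. Switch replicate 4 lay among the control libraries.

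**Figure D4:**
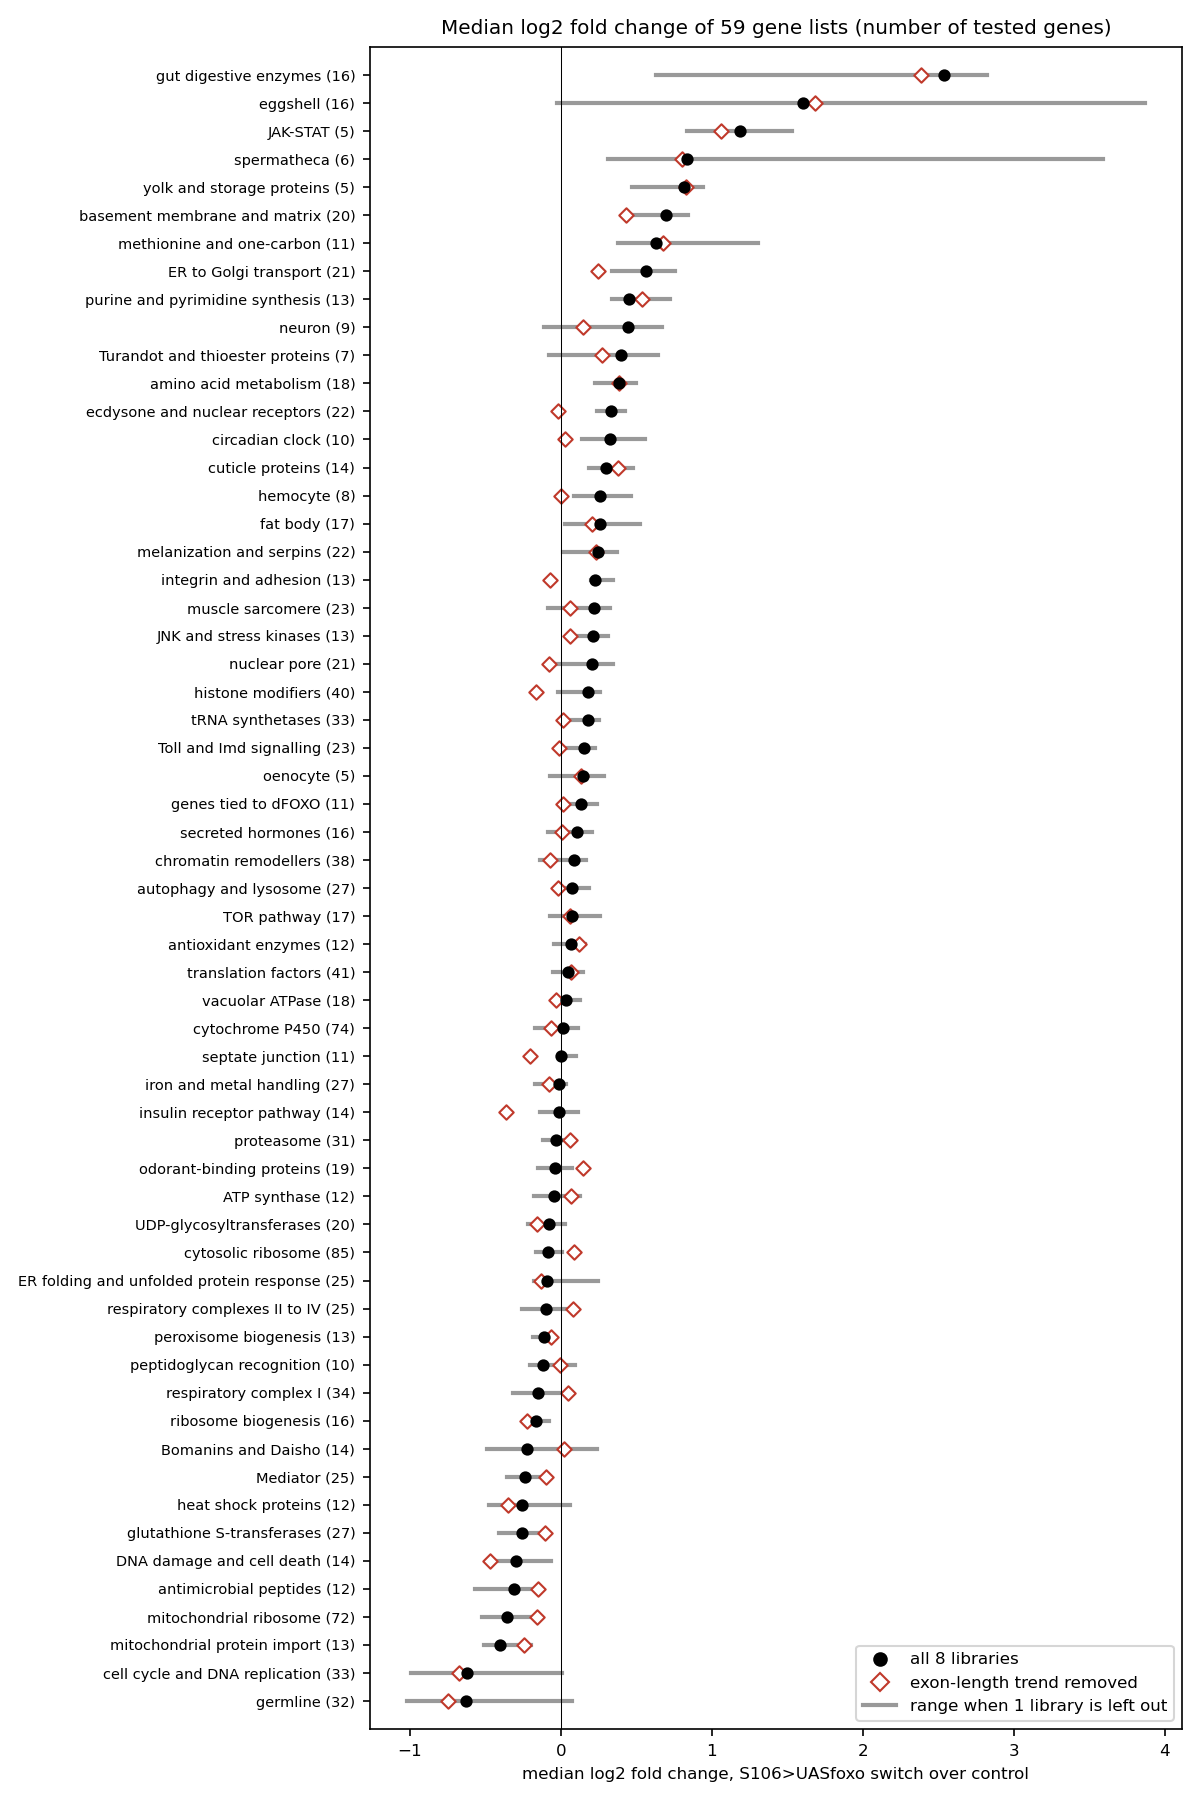
Median log2 fold change of S106>UASfoxo switch over control for 59 gene lists, with the number of tested genes in brackets. Black points are the fit to all libraries, open diamonds the fit with the exon-length trend removed, and grey lines the range over fits that leave out 1 of the 8 libraries. The JAK-STAT genes have a median of 1.19 and germline genes one of -0.63, and the lines are longest for eggshell, spermatheca and gut lists.

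A fit with ovary content as a covariate, the mean log2 CPM of eggshell and germline genes per library, gave more calls. It left out those 2 lists and called 1138 of 9771 genes (11.6%) at an adjusted p under 0.05 in edgeR's quasi-likelihood test, 804 of them higher (8.23%) and 334 lower (3.42%). Of the 1138, 31 belong to the sugar and lipid lists, which hold 40 and 48 genes of the count table, a larger share than the 11.6% of all genes. Of the 1138, 204 had non-overlapping groups, and 929 were also called in the same direction with the length trend removed. The number rested on single libraries. It was 1 without switch replicate 1, switch replicate 3, control replicate 2 or control replicate 4, and 184 without switch replicate 2, but 2171 without control replicate 3. It was 0 when the driver-only libraries were left out of the fit, and 1 when germline genes alone made the covariate.

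In each of these fits with 1 call the gene was CG18507 (FBgn0028527, chromosome 2L, 13665525 to 13672967), for which no role is given here. It had 15.6, 24.3, 17.2 and 12.2 CPM in switch libraries, against 5.83, 8.71, 8.19 and 3.29 CPM in control libraries. The groups did not overlap, and the log2 fold change was 1.41 ± 0.39 without the covariate (adjusted p = 0.273) with an adjusted p of 0.00125 with it. Driver-only libraries had 8.02 to 22.6 CPM.

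Genes called with the covariate are given next for lists seen above. This fit used the same libraries and contrast as the fit without the covariate, so the calls are not independent of it. Of 20 basement membrane genes 10 rose and none fell, against 8.23% and 3.42% of all genes: besides vkg, Col4a1, Ppn, Pxn, Tig and Mp these were Ndg, SPARC, PH4alphaEFB and Glt. Of 21 genes of transport between endoplasmic reticulum and Golgi 9 rose, among them Sec13, Sec23, betaCOP and gammaCOP. The 6 subunits named as higher for complexes II to IV rose and COX7CL fell, while ND-75, ND-39 and blw also rose. Of the muscle list 6 of 23 rose, and of the adhesion list 6 of 13 rose and 2 fell. Of 17 fat body markers 4 rose. Genes called lower included Parp1, a DNA damage and chromatin enzyme, Haspin, a mitotic histone kinase, and vih, a ubiquitin-conjugating enzyme of mitosis. vih had 41.3, 21.3, 29.2 and 48.5 CPM in switch libraries, against 70.6, 26.1, 34.6 and 135 CPM in control libraries, and these values overlapped and were highest in replicates 1 and 4 of both groups, which also had the highest germline means. All of these calls carry the dependence on single libraries given above.

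**Figure D5:**
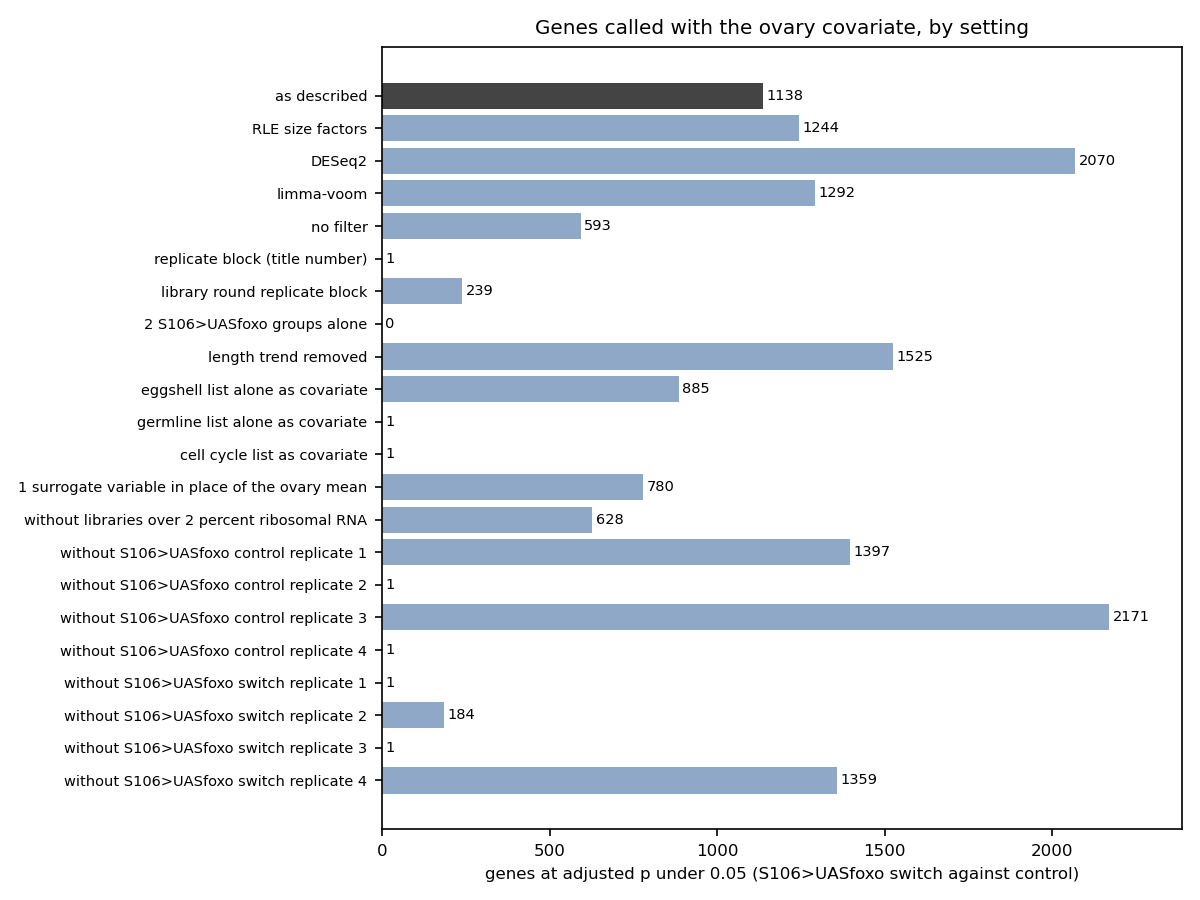
Number of genes at an adjusted p under 0.05 for S106>UASfoxo switch against control with the ovary covariate, for the fit as described (dark bar, 1138 genes) and for each alternative (light bars). The bars run from 0 for the 2 S106>UASfoxo groups alone to 2171 without control replicate 3.

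In flies with the driver alone, switch and control libraries were compared in the same fit: 0 of 9819 genes passed the adjusted threshold in edgeR's test and 68 (0.693%) passed an unadjusted p under 0.05. The log2 fold change of switch over control in these flies was 0.16 ± 0.24 for Taf6 and 0.64 ± 0.53 for htk. The difference between the 2 switch effects, which tests whether the transgene changed the response to RU486, called 0 genes with the ovary covariate. At an unadjusted p under 0.05 it had 834 genes (8.54%), the smallest adjusted p was 0.268, and DESeq2 called 1 gene. The common biological coefficient of variation was 0.51.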

How the data were processed

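Whole-number read counts per gene were deposited by the authors as tables of the series. HISAT2, SAMtools, featureCounts, DESeq2 and FastQC are listed, without their roles, per the submitters' processing notes. For versions, genome build, annotation and strand the sources used here give nothing. From the fat-body table (14649 genes, 14538 matched to a symbol), edgeR 4.0.16 (R 4.3.3) tested 9819 genes holding 99.92% of counts, with filterByExpr, TMM scaling and a robust quasi-likelihood fit to all 17 fat-body libraries in 4 groups, Benjamini-Hochberg adjusted over all tested genes at 0.05. A further fit added ovary content, the mean log2 CPM (prior count 2) of eggshell and germline genes. DESeq2 1.42.0, limma-voom 3.58.1, a surrogate variable (sva 3.50.0), and a removed trend on exon length (lowess, span 0.3, lengths from BDGP6) were alternatives. The fits were tested on simulated data. Members, lists and tests were chosen with earlier results of these data known. Named genes were foxo, Xbp1, Thor, 15 higher and 15 lower genes of smallest p with non-overlapping groups and at least 5 CPM, up to 3 per list, and 10 per direction with the covariate, while other list members and 28SrRNA-Psi:CR45855 were named after their values were seen. Of rows with at least 10 counts on average, 189 were identical to another row and were not named. Totals of 6708078 to 11977047 counts per library set the precision, and no interval for counting error is given. Of the 15 lower genes, 1 is not reported here by name.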

Additional observations from a re-analysis of the deposited data

Results flagged for a closer look

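In 184 groups of 4 values, 11 held a library far from the other 3, and chance gives about 1 in 20. The list means given next were those of switch replicate 4 that lay below the other switch libraries. They were 5.07 for basement membrane (others 5.68 to 5.72), 5.63 for adhesion (6.14 to 6.19), 5.66 for transport between endoplasmic reticulum and Golgi (6.17 to 6.23), 7.43 for translation factors (7.63 to 7.66), 5.2 for clock genes (5.81 to 5.87) and 4.02 for nuclear receptors (4.41 to 4.48), all mean log2 CPM. The septate junction mean was 5.63 in switch replicate 2, above 5.37 to 5.38 in the others. Among control libraries, replicate 4 was low for muscle genes (5.77, others 6.25 to 6.32) and cytochrome P450 genes (3.76, others 4.48 to 4.54). Control replicate 3 was low for gut enzymes (-0.166, others 1.21 to 1.28), and control replicate 1 was high for heat shock genes (5.37, others 4.72 to 4.83).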

How the results depend on the processing

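No gene passed the adjusted threshold under any alternative for the switch effect without ovary content except DESeq2 (53) and 1 surrogate variable (780). The count at an unadjusted p under 0.05 was 1269, and 670 to 1716 when 1 library was left out, with 812 without switch replicate 1 and 670 without control replicate 4. It was 3025 with the surrogate variable and 773 with ribosomal RNA share as a covariate. The 1138 calls with ovary content became 2070 with DESeq2, 593 without the filter on low counts, 1 with germline genes or with cell cycle genes as the covariate, 0 with the 2 S106>UASfoxo groups alone, and 628 without libraries over 2% ribosomal RNA. Leaving out 1 library gave 1 to 2171. With a replicate block on the title number it was 1. With a block on the library round, meaning a run of consecutive library numbers, it was 239. Whether such a run was handled as a batch is not known from the sources used here. Correlations of deviations between libraries with the same title number were -0.0633, 0.395, 0.362 and 0.584. As the first is under 0.1, the numbers were not taken to pair libraries, although 3 of the 4 pairs were above every unlike-numbered pair (highest 0.245). Neither block gave a call without ovary content. The difference of switch effects had 0 calls when 1 library was left out and 1 with DESeq2. The ovary content difference was -0.37 without control replicate 2, and -0.37 to 1.35 over all 8 omissions. Thor, with a log2 fold change of -0.01, had 0.18 with the length trend removed and -0.23 to 0.18 when 1 library was left out (0.17 without switch replicate 1, 0.18 without control replicate 3). The cause of each was not tested. Of 950 values of named genes under alternatives, 882 kept their side of the threshold, 65 came past it and 3, all of 1 result, were reversed. Of 1121 list medians, 25 moved by more than the spread between libraries. Fits without ribosomal RNA-rich libraries, with ribosomal RNA share, and all unadjusted counts were chosen after seeing the data.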
